A study of Mus musculus with 6 samples.

Results

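The genes described here encode the enzymes and the electron carrier that turn cholesterol into adrenal steroids, followed in the order of the pathway. Of 10 genes named for this purpose, 6 had at least 1 probe set in the platform annotation: Star, Cyp11a1, Hsd3b1, Hsd3b6, Cyp21a1 and Fdx1. The array covered 8251 named genes in all. The 6 were matched by symbol or Entrez identifier and had 9 of the 12422 probe sets that were not controls. Cyp11b1, Cyp11b2, Fdxr and Por had no probe set listed and were not analysed here, so that the final steps to corticosterone and aldosterone are not covered. Whole adrenal glands were compared between Chga knockout mice (3 arrays) and wild-type mice (3 arrays), all male and 12 weeks old. Chga encodes chromogranin A, a protein of the catecholamine storage granules of the adrenal medulla. The labels name the knockout and the wild-type strain only through an earlier study; the genetic background and the deleted part of the gene are not stated in the labels. Each array held 1 sample, and the series describes 3 mice per genotype.

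As background, steroid synthesis starts when the carrier protein StAR, the product of Star, brings cholesterol to the inner mitochondrial membrane. There the side-chain cleavage enzyme Cyp11a1 makes pregnenolone, using electrons that ferredoxin reductase (Fdxr) passes to the iron-sulphur protein ferredoxin (Fdx1). Enzymes of the Hsd3b family then make progesterone. In the endoplasmic reticulum Cyp21a1 hydroxylates progesterone, with electrons from Por, and back in the mitochondria Cyp11b1 and Cyp11b2 complete corticosterone and aldosterone. In the mouse, Hsd3b1 is the widely expressed adrenal and gonadal isoform and Hsd3b6 has been described in the zona glomerulosa, the outer layer that makes aldosterone.

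The values were linear MAS5 signals, 1 per probe set and array. The median signal of an array lay between 954 and 1093. Chga was low on all knockout arrays: its brighter probe set read 1188, 858 and 951 on knockout arrays 1 to 3, against 46719, 30213 and 35306 on the wild-type arrays. Knockout arrays 2 and 3 stood apart from the other 4 arrays. Their 3' to 5' signal ratios of the Gapdh control transcript, a sign of RNA or cRNA integrity, were 1.30 and 1.29, against 0.831 on knockout array 1 and 0.762 to 0.806 on the wild-type arrays. Those of the beta-actin control were 1.69 and 1.72, against 1.32 on knockout array 1 and 1.14 to 1.22 on the wild-type arrays. By this control, knockout array 1 also lay above every wild-type array. On knockout arrays 2 and 3 skeletal muscle transcripts were also high, with 8 of 11 markers above the other 4 arrays. Hsd3b6, the steroid synthesis gene whose 2 highest signals were on these arrays, is given with and without them.

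Markers of the labelled tissue were bright. All 6 adrenal cortex markers had a probe set, and their summed signal was 402449 to 437616 on the knockout arrays, against 378872 to 455109 on the wild-type arrays. Star, Cyp11a1 and Fdx1, which are followed here, are among these markers, so the sum is not a separate measure of the cortex. Nr5a1, the transcription factor that directs adrenal cortex identity, read 46424, 47107 and 47950 on knockout arrays 1 to 3, against 44277, 47254 and 40645 on the wild-type arrays. Markers of Leydig cells, the steroid cells of the testis, were dim, at a summed 1016 to 1877 on knockout arrays, against 1348 to 1801 on wild-type arrays. Among these was Cyp17a1, which the mouse adrenal is known to lack after birth, and which read 266 to 660 on knockout arrays and 282 to 750 on wild-type arrays.

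Star, Cyp11a1, Hsd3b1, Cyp21a1 and Fdx1 were bright in both genotypes, and no steroid synthesis probe set passed the test between them. Limma was run on log2(signal + 16) over the 7453 probe sets whose mean log2 signal was in the upper part of the array, at or above the 40th percentile (a signal near 582). With Benjamini-Hochberg adjustment and a threshold of 0.05, 0 of the 8 steroid synthesis probe sets that entered the test were called, and 0 had an unadjusted p under 0.05. Over all tested probe sets, 33 were called (0.443%), 12 of them higher (0.161%) and 21 lower (0.282%) in the knockout, and 843 had an unadjusted p under 0.05 (11.3%). A count of 0 among 8 is therefore near what the whole array gave. In each of the 8 the knockout and wild-type arrays overlapped, where the groups did not overlap for 16.4% of all tested probe sets. The estimates were higher in the knockout for 5 probe sets and lower for 3, but under quantile normalization 2 were higher and 6 lower, and without wild-type array 3 it was 3 and 5. Their median log2 change was 0.042, beside -0.0083 over all tested probe sets, and it turned to -0.079 under quantile normalization and to -0.031 without wild-type array 3, and was 0.15 without wild-type array 2. Their median absolute change was 0.15, beside 0.19. These are whole glands, so that fewer cortical cells and less RNA per cell cannot be told apart.

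**Figure D1:**
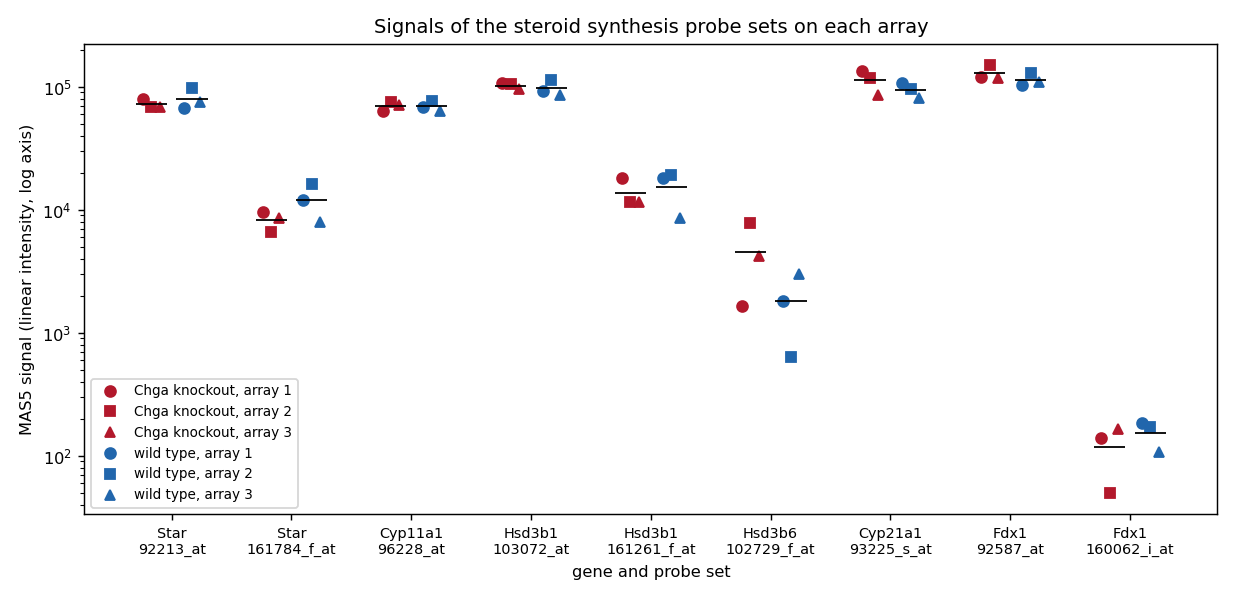
MAS5 signal (log axis) of the 9 probe sets on each array, with Chga knockout arrays in red left of wild-type arrays in blue, marker shapes for the array number and black lines for group means. In every probe set the colours overlap. The Hsd3b6 points spread over about a decade, from 628 on wild-type array 2 to 7770 on knockout array 2.

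The entry step, carried by Star, showed lower estimates in the knockout that did not pass. The brighter Star probe set read 79950, 68077 and 68702 on knockout arrays 1 to 3, against 67033, 97225 and 74784 on wild-type arrays 1 to 3. Wild-type array 2 held the highest and wild-type array 1 the lowest of the 6 values, so that the wild-type group spanned the whole range of the knockout group. The mean was 72243 ± 6682 in the knockout and 79680 ± 15680 in wild type (SD, n = 3 each), with a log2 change of -0.13 ± 0.15 (SE) and a limma adjusted p of 0.792. The 95% interval of the change ran from a fold of 0.720 to 1.16.

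The second Star probe set was dimmer and gave a larger estimate. It read 9555, 6638 and 8523 on knockout arrays, against 11939, 16023 and 7988 on wild-type arrays. All 3 knockout values lay below wild-type arrays 1 and 2, but wild-type array 3 lay below knockout arrays 1 and 3. The log2 change was -0.50 ± 0.25 (SE), with a limma adjusted p of 0.487 and an unadjusted p of 0.0751. Its identifier carries the suffix f, which marks a probe set whose sequence belongs to a family, so that part of its signal may come from related transcripts. The log2 signal of this probe set minus that of the brighter one was -3.14 ± 0.19 in the knockout and -2.77 ± 0.40 in wild type (SD, n = 3 each). That difference of -0.37 between the genotypes did not pass a two-sided exact permutation test (p = 0.3, where the smallest possible is 0.1, and 0.45 adjusted over 3 such contrasts). Adjusted for the Gapdh 3' to 5' ratio, the brighter probe set had a log2 change of 0.084 and the dimmer one of -0.15.

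Cyp11a1, which commits cholesterol to steroid synthesis, had nearly the same mean in both genotypes. It read 63838, 75125 and 70591 on knockout arrays, against 68966, 76533 and 63721 on wild-type arrays. Each genotype held a low and a high array, and the ranges were almost the same. The mean was 69852 ± 5680 in the knockout and 69740 ± 6441 in wild type (SD, n = 3 each). The log2 change was 0.00 ± 0.12 (SE, limma adjusted p = 0.994), and it turned to -0.077 under quantile normalization. The 95% interval of the fold ran from 0.830 to 1.21, the narrowest among the 8 probe sets.

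Fdx1, the ferredoxin that feeds electrons to Cyp11a1 and the other mitochondrial hydroxylases, was the other mitochondrial component measured. Its bright probe set read 118774, 149013 and 116780 on knockout arrays, against 102524, 128096 and 109662 on wild-type arrays. Knockout array 2 had the highest value, and wild-type array 2 exceeded the remaining knockout arrays. The mean was 128189 ± 18062 in the knockout and 113427 ± 13195 in wild type (SD, n = 3 each), a log2 change of 0.17 ± 0.14 (SE, limma adjusted p = 0.675) that became -0.021 under quantile normalization. The fold interval was 0.909 to 1.40. Its other probe set was left out of the test as dim, with 139, 49.6 and 166 on knockout arrays, against 183, 171 and 106 on wild-type arrays. Its suffix, i, marks a probe set designed with fewer probes than usual.

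Some of the bright probe sets lay near the top of an array's scale. The highest signal was 134200, 168767 and 142640 on knockout arrays 1 to 3, against 110803, 134820 and 110001 on wild-type arrays. It differed between arrays, so the shares below do not compare signals between genotypes, and it is not a common ceiling. The Fdx1 signal reached 81.9% to 88.5% of the highest signal on knockout arrays and 92.5% to 99.7% on wild-type arrays. Cyp21a1 was the brightest probe set of knockout array 1, and otherwise reached 60.1% to 70.3% on knockout arrays and 70.6% to 96.7% on wild-type arrays. The bright Hsd3b1 probe set reached 62.5% to 79.2% on knockout arrays and 78.2% to 83.7% on wild-type arrays. Star and Cyp11a1 lay lower, at 40.3% to 59.6% and 44.5% to 49.5% on knockout arrays and at 60.5% to 72.1% and 56.8% to 62.2% on wild-type arrays. The deposited values carry no flag for saturation, and its part in these results was not tested.

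Because Cyp11a1 starts the pathway, its upstream sequence is shown from RefSeq (GRCm38.p6). The table of promoters, 250 bases before to 50 after a start, matched 4 of the 6 measured genes. Cyp11a1 had 2 start sites there. The downstream one, on the plus strand at chr9:58014702-58015001, holds the letters AGGTCA, a short nuclear receptor motif of the kind that Nr5a1 binds, in capitals below, with its first base 28 bases before the start.
Cyp11a1 promoter: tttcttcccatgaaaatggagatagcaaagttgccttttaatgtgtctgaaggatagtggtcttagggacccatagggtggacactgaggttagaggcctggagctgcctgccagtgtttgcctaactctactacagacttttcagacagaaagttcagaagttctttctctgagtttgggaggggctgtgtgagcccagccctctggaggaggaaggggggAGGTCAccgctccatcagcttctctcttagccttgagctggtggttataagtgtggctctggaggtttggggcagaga
The window at the other Cyp11a1 start and that of Fdx1 do not hold AGGTCA, so the window shown is the one with a match. Of 32851 promoter windows of this length, 16.3% hold AGGTCA on either strand. A match to these letters is a description and not a site of binding.

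Hsd3b1, which makes progesterone from pregnenolone, was steady on its brighter probe set. That probe set read 106342, 105397 and 94906 on knockout arrays, against 92787, 112557 and 85978 on wild-type arrays. Wild-type array 2 held the highest value and wild-type array 3 the lowest, with the knockout arrays between them. The mean was 102215 ± 6347 in the knockout and 97108 ± 13806 in wild type (SD, n = 3 each). The log2 change was 0.08 ± 0.13 (SE, limma adjusted p = 0.845), -0.080 under quantile normalization, with a fold interval of 0.864 to 1.30. The second probe set, with the family suffix f, read 17999.5, 11560 and 11591 on knockout arrays, against 18214, 19152 and 8527 on wild-type arrays. Here wild-type array 3 was the lowest and the other wild-type arrays the highest, and the log2 change was -0.10 ± 0.31 (SE, limma adjusted p = 0.937). The 2 probe sets of Hsd3b1 thus gave estimates of opposite sign, neither past the test, and their contrast between the genotypes was -0.18 (two-sided exact permutation p = 0.7, also 0.7 adjusted over the 3 contrasts).

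Hsd3b6 had the largest estimate and the least agreement between replicates. Its probe set, of the family kind, read 1650, 7770 and 4226 on knockout arrays, against 1808, 628 and 2994 on wild-type arrays. Knockout arrays 2 and 3 were the highest of the 6, while knockout array 1 lay below 2 of the 3 wild-type arrays. The mean was 4549 ± 3073 in the knockout and 1810 ± 1183 in wild type (SD, n = 3 each). The log2 change was 1.32 ± 0.63 (SE), with a limma adjusted p of 0.475 and an unadjusted p of 0.0655. Its 95% interval reached from a fold of 0.930 to 6.70, so that no change and an increase of several-fold both lie inside it. When knockout array 1 was the only knockout array used the log2 change was 0.13, and adjusted for the Gapdh 3' to 5' ratio it was -0.26. That ratio was high on knockout arrays 2 and 3 alone, so these settings are not separate checks. Without wild-type array 2, the lowest array, the log2 change was 0.70, and without knockout array 1 it was 1.92 (limma adjusted p = 0.149).

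**Figure D2:**
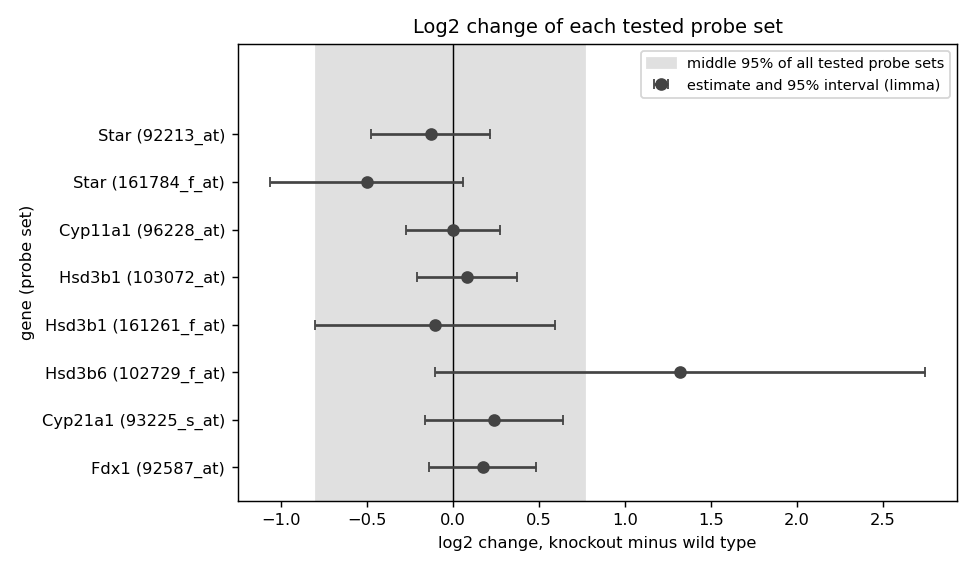
Log2 change (knockout minus wild type) of the 8 tested probe sets, with limma 95% intervals, beside a grey band for the middle 95% of all tested probe sets (-0.79 to 0.77). Every interval includes 0. The Hsd3b6 estimate of 1.32 is the one outside the band, and its interval is the widest.

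The difference between the 2 Hsd3b isoforms varied widely between arrays, and its values overlapped between the genotypes. The log2 signal of Hsd3b6 minus that of the brighter Hsd3b1 probe set was -4.75 ± 1.14 in the knockout and -5.98 ± 1.33 in wild type (SD, n = 3 each), a difference of 1.24. A two-sided exact permutation test gave p = 0.3, and 0.45 adjusted over the 3 contrasts. With knockout array 1 alone the difference was -0.012. Members of the Hsd3b family are close copies, and the family design of the Hsd3b6 probe set leaves its share of related transcripts unknown. Among related isoforms, probe sets of Hsd3b2, Hsd3b3 and Hsd3b5 were dim on all 6 arrays, at 53.1 to 571 on knockout arrays and 76.0 to 508 on wild-type arrays. Hsd3b7, a more distant member that acts in bile acid synthesis, read 3004, 3797 and 5893 on knockout arrays, against 3432, 7246 and 3580 on wild-type arrays, and so was not dim.

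The Hsd3b1 and Hsd3b6 genes share a stretch of chromosome 3, and their upstream sequences are shown because the isoforms differed most in how steady they were. Both are on the minus strand in GRCm38.p6 (RefSeq), Hsd3b1 at chr3:98859745-98860044 and Hsd3b6 at chr3:98814394-98814693, printed 5' to 3' in lower case. The letters AGGTCA and CAAGGTCA on either strand, where CAAGGTCA is an extended Nr5a1 site that contains AGGTCA, and the TATA core TATAAA on the transcribed strand were searched for and were not found in either window.
Hsd3b1 promoter: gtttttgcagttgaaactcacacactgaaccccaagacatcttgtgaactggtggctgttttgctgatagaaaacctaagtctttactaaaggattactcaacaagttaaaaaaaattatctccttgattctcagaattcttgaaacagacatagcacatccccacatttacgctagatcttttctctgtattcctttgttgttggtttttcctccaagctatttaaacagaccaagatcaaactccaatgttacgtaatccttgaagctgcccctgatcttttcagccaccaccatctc
Hsd3b6 promoter: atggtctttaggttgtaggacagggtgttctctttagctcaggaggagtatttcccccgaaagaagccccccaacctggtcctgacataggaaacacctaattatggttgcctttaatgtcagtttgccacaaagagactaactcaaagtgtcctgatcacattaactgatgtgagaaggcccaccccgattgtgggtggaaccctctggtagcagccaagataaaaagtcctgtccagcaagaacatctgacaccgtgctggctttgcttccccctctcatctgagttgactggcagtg
Over all windows, 1.56% hold CAAGGTCA and 8.32% hold TATAAA. The absence of these letters here says nothing about the factors that bind them.

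The skeletal muscle and macrophage marker sums were, like Hsd3b6, highest on knockout arrays 2 and 3. Among the wild-type arrays Hsd3b6 read 1808, 628 and 2994, a wider relative spread than that of either sum. The 11 skeletal muscle markers summed to 10380, 77953 and 39802 on knockout arrays 1 to 3, against 10086 to 10697 on wild-type arrays. Acta1, the actin of skeletal muscle fibres, had signals of 565, 32131 and 13869 on knockout arrays, against 180, 180 and 29.1 on wild-type arrays. The 9 macrophage markers summed to 19178, 38242 and 31055 on knockout arrays, against 16748 to 20631 on wild-type arrays, and 7 of the 9 were above the other 4 arrays on both knockout arrays 2 and 3. Tnnt3, a troponin of fast muscle, read 65.4, 3856 and 1691 on knockout arrays, against 27.0, 47.4 and 34.6 on wild-type arrays. Among the muscle markers Pvalb read 5654, 14767 and 8335 on knockout arrays, against 5635, 5252 and 6403 on wild-type arrays. The muscle markers Ckm, Myh4 and Actn3 went otherwise and were lowest on knockout array 2, at 553, 807 and 568.

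Of the adipocyte and liver lists, the summed signals were highest on knockout arrays 2 and 3 and wild-type array 3, while 1 marker of each list lay above the other 4 arrays on both knockout arrays 2 and 3. The 6 adipocyte markers with a probe set, of 8 listed, summed to 32626, 58655 and 52192 on knockout arrays, against 27705, 41564 and 51106 on wild-type arrays. Adipoq, the fat hormone adiponectin, read 18419, 32112 and 31932 on knockout arrays, against 12806, 13911 and 27874 on wild-type arrays. Like Hsd3b6, it was highest on knockout arrays 2 and 3 and next on wild-type array 3. Ucp1, of brown fat, went otherwise, with 874, 8661 and 3496 on knockout arrays, against 2344, 10047 and 8955 on wild-type arrays. So did Retn, with 964, 4613 and 3302 on knockout arrays, against 2962, 5553 and 5082 on wild-type arrays. Fabp4 was lowest on knockout array 2, at 2848. The 5 liver markers with a probe set, of 6 listed, summed to 16510, 35377 and 25358 on knockout arrays, against 15272, 12807 and 34929 on wild-type arrays. Cyp2e1 made up most of that sum, with 14776, 30758 and 21090 on knockout arrays, against 13477, 10341 and 32507 on wild-type arrays. No marker of these 4 lists was listed at 0 on any array, and Alb, the albumin that defines liver, read 504, 2909 and 2811 on knockout arrays, against 709, 678 and 832 on wild-type arrays. The part of these cell types in the Hsd3b6 signal was not tested.

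**Figure D3:**
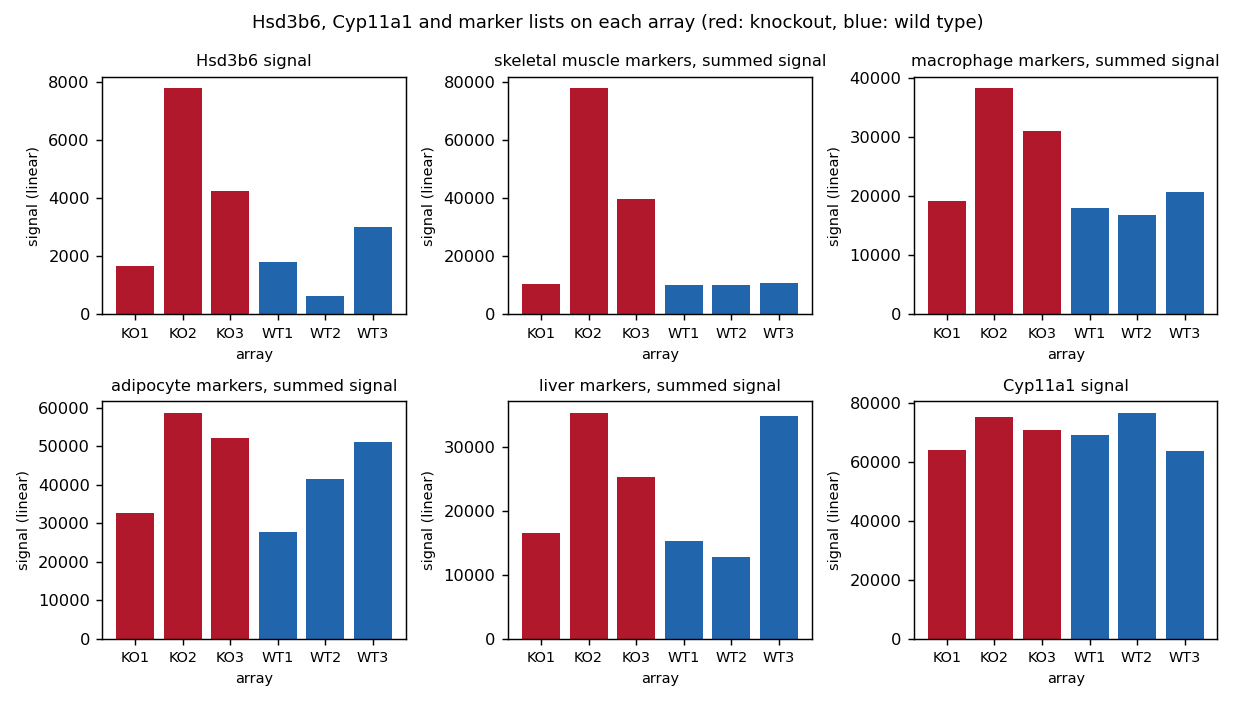
Signal of Hsd3b6 and Cyp11a1 and the summed signal of 4 marker lists on each array (linear axes from 0), knockout arrays in red and wild-type arrays in blue. Knockout arrays 2 and 3 stand highest for Hsd3b6, muscle and macrophage markers, and the 6 Cyp11a1 bars lie between 63721 and 76533.

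Zona glomerulosa markers were also read beside Hsd3b6. Of 7 listed, 4 had a probe set, and they summed to 29050, 32594 and 30473 on knockout arrays, against 28607, 24313 and 22267 on wild-type arrays, so that the sums did not overlap. Dab2 made up most of each sum. None of the 4 passed over all probe sets, and 2 had higher and 2 lower estimates in the knockout. Dab2, an endocytic adaptor, read 18796, 17478 and 18466 on knockout arrays, against 16511, 14125 and 12155 on wild-type arrays, a log2 change of 0.37 ± 0.14 (SE, limma adjusted p = 0.402). Wnt4 and Shh, signalling proteins of the outer cortex, had log2 changes of -0.23 ± 0.26 and -0.42 ± 0.23 (SE, limma adjusted p = 0.781 and 0.528). Shh read 1737, 2633 and 1550 on knockout arrays, against 2995, 2172 and 2613 on wild-type arrays. Vsnl1, a neuronal calcium sensor protein, read 5233, 8053 and 6973 on knockout arrays, against 5180, 1502 and 4317 on wild-type arrays (log2 change 1.04 ± 0.41, limma adjusted p = 0.403). As for Hsd3b6, wild-type array 2 was the lowest and knockout array 2 the highest for Vsnl1. Wnt4 went otherwise, with 3285, 4430 and 3485 on knockout arrays, against 3922, 6514 and 3183 on wild-type arrays. The highest Wnt4 value was on wild-type array 2. The 3 zona fasciculata markers with a probe set, of 5 listed, were Hsd3b1 itself and the genes of the corticotropin receptor and its accessory protein, Mc2r and Mrap, and summed to 122906 to 152973 on knockout arrays, against 123604 to 150583 on wild-type arrays. Pik3c2g, a marker of the foetal X zone, read 682, 245 and 218 on knockout arrays, against 5110, 5850 and 6099 on wild-type arrays. It passed the filter on low values through its wild-type signals, so no test is given for it. Thrb, the other X zone marker with a probe set, read 859, 180 and 238 on knockout arrays, against 812, 1211 and 962 on wild-type arrays. For Thrb the groups overlapped, since knockout array 1 lay within the wild-type range.

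Cyp21a1, the hydroxylase that acts on progesterone in the endoplasmic reticulum, had a higher estimate in the knockout that did not pass. It read 134200, 118583 and 85758 on knockout arrays, against 107113, 95212 and 81601 on wild-type arrays. Knockout arrays 1 and 2 exceeded every wild-type array, and knockout array 3 lay below wild-type arrays 1 and 2. The mean was 112847 ± 24725 in the knockout and 94642 ± 12766 in wild type (SD, n = 3 each), with a log2 change of 0.24 ± 0.18 (SE, limma adjusted p = 0.654). The fold interval was 0.893 to 1.56. With knockout array 1 alone the log2 change was 0.51, and under quantile normalization it was 0.06. The suffix s marks a probe set shared by similar sequences, and the mouse genome holds a pseudogene copy, Cyp21a2-ps, whose transcripts it may also detect.

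The probe sets differed in how closely replicate arrays matched, which decides what size of change each could show. The replicate SD on the log2 scale was 0.13 for Cyp11a1, beside a median of 0.13 over the 64 other probe sets of like brightness (mean log2 signal within 0.5). It was 0.16 for the brighter Hsd3b1, beside a median of 0.16 over 28 such neighbours, and 0.18 for Fdx1, beside 0.18 over 14. It was wider for the brighter Star probe set (0.22), with 83.6% of its neighbours below it, and for Cyp21a1 (0.27), with 92.0% below. The dimmer Star and Hsd3b1 probe sets had SDs of 0.40 and 0.53, with 92.6% and 96.6% of their neighbours below. Hsd3b6 had an SD of 1.13, against a median of 0.24 over 1924 neighbours, of which 99.7% were below. Of the 8 intervals, 6 lay inside a 2-fold change in either direction and 4 inside a 1.5-fold change. The 4 were those of the brighter Star and Hsd3b1 probe sets, Cyp11a1 and Fdx1.

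**Figure D4:**
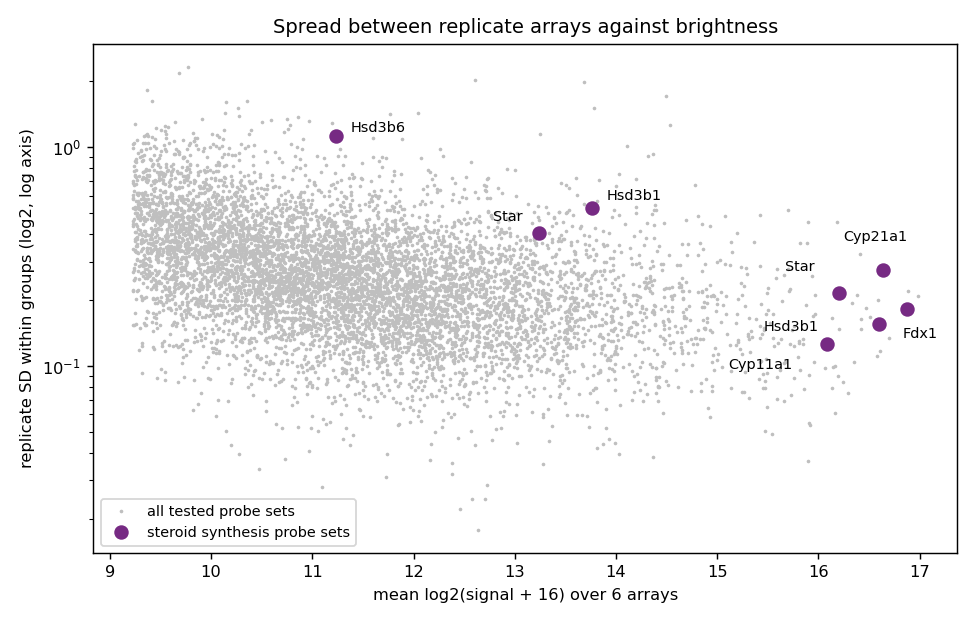
Replicate SD within groups (log2, log axis) against mean log2(signal + 16) over 6 arrays, for all 7453 tested probe sets in grey and the 8 steroid synthesis probe sets in purple. Hsd3b6 sits at the upper edge with an SD of 1.13, and Cyp11a1 lies among its neighbours at 0.13.

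Further genes of the pathway were read from lists, and those named from each list below are the ones of smallest unadjusted p. Over all tested probe sets, 11.3% had a limma unadjusted p under 0.05, and 16.4% had groups that did not overlap. The list counts and the genes without overlap are to be read beside these shares. Of 29 other steroid-metabolising enzymes, 17 had a probe set and 8 were tested, of which 0 rose and 0 fell, with a median log2 change of 0.19 and 0 at an unadjusted p under 0.05. Hsd11b1, which regenerates active glucocorticoid, read 1689, 4060 and 3356 on knockout arrays, against 1802, 3007 and 1585 on wild-type arrays (log2 change 0.47 ± 0.35, limma adjusted p = 0.650). H6pd, which supplies it with NADPH, had a log2 change of 0.19 ± 0.12 (limma adjusted p = 0.591), with all 3 knockout arrays above the wild-type arrays. Hsd17b11 and Hsd17b4, of the steroid and fatty acid dehydrogenase family, had log2 changes of 0.27 and 0.19.

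Genes that deliver cholesterol to Star and Cyp11a1 were likewise without a call. Of 16 listed, 9 were tested, 0 rose and 0 fell, and 1 had an unadjusted p under 0.05. That one was Npc1, which moves cholesterol out of lysosomes and read 11718, 9039 and 8768 on knockout arrays, against 8345, 5963 and 6839 on wild-type arrays (log2 change 0.48 ± 0.18, limma adjusted p = 0.389). Tspo, an outer mitochondrial membrane protein long studied in cholesterol import, read 54677, 52446 and 50713 on knockout arrays, against 45239, 49663 and 44691 on wild-type arrays (log2 change 0.18 ± 0.11, limma adjusted p = 0.566). The knockout arrays were the highest 3 of the 6. Lipa, the lysosomal cholesteryl ester lipase, and the channel gene Vdac2 had log2 changes of -0.32 and -0.17. The list's median was -0.01.

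Further redox partners, haem and iron-sulphur genes and sources of NADPH, from mitochondria, cytosol and endoplasmic reticulum, gave 0 calls among 16 tested of 21 listed, with 2 at an unadjusted p under 0.05 and a median log2 change of 0.01. Idh1, a cytosolic source of NADPH, read 16685, 16690 and 15754 on knockout arrays, against 25699, 21140 and 20487 on wild-type arrays (log2 change -0.45 ± 0.13, limma adjusted p = 0.270). Its groups did not overlap. Hmox1, the haem oxygenase that breaks down haem, read 4787, 12190 and 13669 on knockout arrays, against 4856, 5134 and 4808 on wild-type arrays (log2 change 0.91 ± 0.34, limma adjusted p = 0.397), and was high on the same arrays as Hsd3b6. Pgd, of the pentose phosphate pathway, and Nnt, the mitochondrial transhydrogenase, had log2 changes of -0.28 and -0.24.

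Regulators and receptors of the cortex held the largest changes among these lists, none past the test. Of 22 listed, 16 were tested, 0 rose and 0 fell, 3 had an unadjusted p under 0.05, and the median log2 change was 0.11. Over all tested probe sets 11.3% had such a p, and whether this list exceeded that share was not tested. The inducible nuclear receptor genes Nr4a2 and Nr4a1, whose proteins are known to act on steroid enzyme promoters, had log2 changes of 1.97 ± 0.37 and 1.05 ± 0.24 (SE, limma adjusted p = 0.0676 and 0.166). Nr4a1 read 62972, 42590 and 58535 on knockout arrays, against 37435, 19167 and 24433 on wild-type arrays, with no overlap. Nr0b1, a repressor of Nr5a1 target genes, read 1897, 1661 and 1786 on knockout arrays, against 2280, 4360 and 2740 on wild-type arrays (log2 change -0.75 ± 0.24, limma adjusted p = 0.320). Mrap, the accessory protein of the corticotropin receptor, had a log2 change of -0.51 ± 0.26 (limma adjusted p = 0.504).

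**Figure D5:**
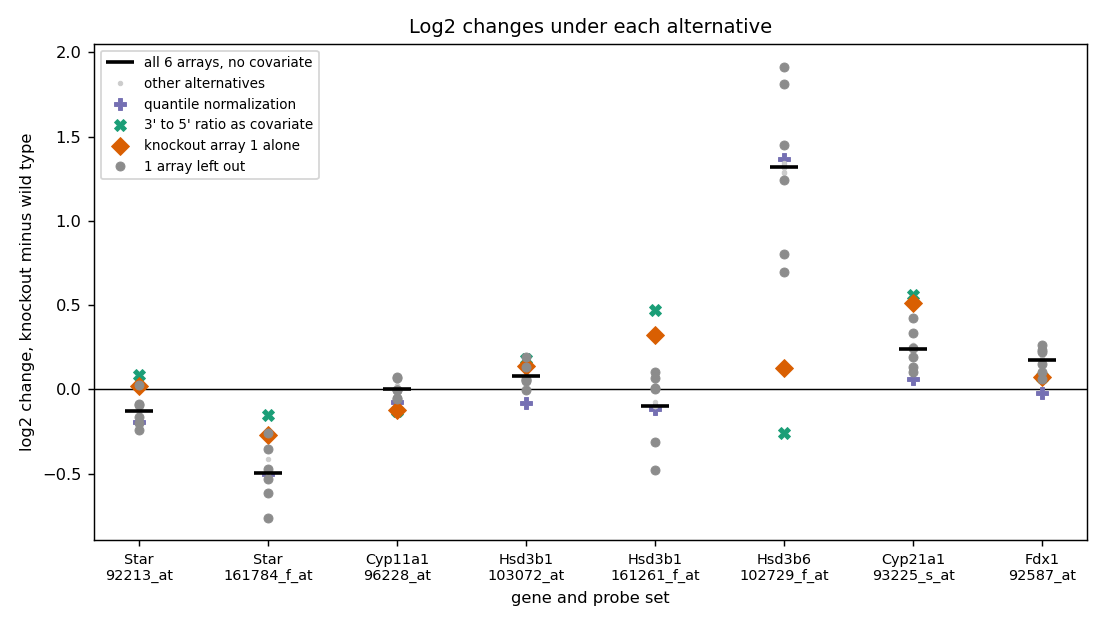
Log2 change (knockout minus wild type) of the 8 probe sets with all 6 arrays (black bars) and under each alternative, with 1 array left out in grey. The Hsd3b6 estimates run from -0.26 to 1.92, and those of Cyp11a1 from -0.13 to 0.072.

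Across 18 alternatives for each of the 8 probe sets, 0 of 144 tests passed the threshold. The lowest adjusted p among them was 0.149, that of Hsd3b6 without knockout array 1. Estimates of the dimmer Star probe set and of Cyp21a1 kept their sign in the 13 alternatives that can change an estimate, at -0.76 to -0.15 for Star and 0.06 to 0.56 for Cyp21a1.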

How the data were processed

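RNA from whole adrenal glands of 3 Chga knockout and 3 wild-type mice was measured on single-colour Affymetrix arrays; groups were taken from the sample titles. The deposited values are linear intensities, 1 per probe set, which the authors computed with MAS5, per the submitters' processing notes, with no version stated there. The mean after removing 2% of probe sets at either end was 2501 on each array, so the values had been scaled and were not normalized again. Of 12488 probe sets, 66 controls were left out. Probe sets were named through the platform annotation, updated by Entrez identifier with a RefSeq table of GRCm38.p6. No genome build is named for the values.

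Tests used limma 3.58.1 in R 4.3.3 (lmFit, eBayes with an intensity trend) on log2(signal + 16), with Benjamini-Hochberg adjustment over 7453 probe sets. That scale understates changes of dim genes. Signals carry the SD of 3 arrays and log2 changes the SE; arrays give no counting depth, so their number limits the precision. Gene lists were represented by the tested probe set of highest mean. The genes named were the members, the 4 list members of smallest unadjusted p, Chga and the brightest markers. Tnnt3, Ckm, Myh4, Actn3, Alb, Nr5a1, Cyp17a1, Pik3c2g, Thrb, Ucp1, Retn, Fabp4, Wnt4, Shh and the Hsd3b isoforms were chosen after their values were seen. Members and lists were chosen with earlier results of these data known. The fitting step was tested on simulated data. Alternatives covered pseudocount, filter, scaling, variance model, array weights, replicate block, 3' to 5' ratio, left-out arrays and the threshold.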

Additional observations from a re-analysis of the deposited data

How the results depend on the processing

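The call of 0 steroid synthesis probe sets was the same under every alternative run, and no adjusted p of theirs came below 0.149. The fit adjusted for the Gapdh 3' to 5' ratio and that with knockout array 1 alone leave little to estimate spread from. A count of 0 under those settings therefore adds little. Of the 18 alternatives, 5 (filters, variance models and the block) cannot change an estimate. Under the other 13, 83 of 104 log2 changes kept their direction and 21 turned, all of values that had no call; the cause was not tested. Under quantile normalization Cyp11a1 turned to -0.077, the brighter Hsd3b1 to -0.080 and Fdx1 to -0.021. With array weights the dimmer Hsd3b1 probe set turned to 0.028. Adjusted for the Gapdh 3' to 5' ratio, the brighter Star, Cyp11a1, the dimmer Hsd3b1 and Hsd3b6 turned to 0.084, -0.13, 0.47 and -0.26. With knockout array 1 alone, where it is assumed to vary like the wild-type arrays, the brighter Star, Cyp11a1 and the dimmer Hsd3b1 turned to 0.023, -0.12 and 0.32, and the Hsd3b6 minus Hsd3b1 difference moved to -0.012. Leaving out 1 array gave ranges of -0.060 to 0.072 for Cyp11a1, -0.48 to 0.11 for the dimmer Hsd3b1, -0.0016 to 0.19 for the brighter Hsd3b1, -0.24 to 0.025 for the brighter Star, and 0.51 to 1.86 for the isoform difference.

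Over the whole array the 33 calls became 17 without an intensity trend, 12 adjusted for the ratio, 13 with knockout array 1 alone, 55 at a threshold of 0.1, and between 15 (without knockout array 3) and 141 (without knockout array 1) with 1 array left out. The replicate number as a block gave 57 calls and 0 among the steroid synthesis probe sets. Same-numbered arrays deviated together with r = 0.26, -0.04 and -0.04, and 1 of the 3 knockout arrays matched its own number best, so the numbers were not taken as pairs. A contrast of Cyp11b2 with Cyp11b1 was not run, since neither had a probe set listed. With 3 arrays a group, an exact permutation test cannot go below p = 0.1, and signals near the top or the bottom of an array limit what a change can show.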
